A study of Mus musculus with 4 samples.

Results

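The SLAM family (signaling lymphocytic activation molecules) was examined here through 8 of its receptor genes, Cd48, Slamf1, Cd84, Ly9, Slamf6, Slamf7, Slamf8 and Slamf9, and through Sh2d1a, which encodes their adaptor SAP. These 9 genes of the 19938 with a probe set of their own were taken by gene symbol, with earlier results of these data in view. The probe set of a gene was chosen by its mean over all 4 arrays, but each of the 9 genes had only 1 probe set, so that this left nothing to choose. RNA came from 2 kinds of proliferating mouse erythroid cells, with duplicate cultures (A and B) of each and 1 Affymetrix Mouse Gene 1.0 ST array per culture. MEL cells, clone DS19, are erythroleukemia cells blocked before terminal red cell differentiation that stably carry Gata-1 fused to ER, the estrogen receptor domain, and they grew in serum-containing DMEM with puromycin. ES-EP are erythroid progenitors made from embryonic stem cells, for which no such fusion is named, and grew in StemPro34 medium with Epogen, IGF-1, dexamethasone and SCF. Cell type, fusion gene and medium changed together and cannot be told apart. The p-values and SEs rest only on the spread between duplicate cultures, which the limma test draws toward a spread pooled over all genes.

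SLAM receptors are immunoglobulin-like proteins on the surface of blood cells, and most of them bind a second copy of themselves on a neighbouring cell. The long-tailed members carry tyrosine motifs that recruit SAP or the related EAT-2, and these adaptors pass the signal to kinases such as Fyn. CD48 is anchored by lipid, has no such tail, and binds the receptors 2B4 and CD2. In mouse bone marrow, SLAMF1 (CD150) without CD48 is a common surface code for hematopoietic stem cells, and CD48 appears on many of the progenitors that follow.

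The test called members in both directions, but the 4 lower in MEL had weak signals, near or only a little above background. Of the 9 genes, 4 were higher in MEL cells (Cd48, Ly9, Slamf1 and Cd84), each by more than 4-fold. Another 4 were lower by the test (Slamf6, Slamf8, Slamf9 and Sh2d1a), and Slamf7 did not pass it. Across all genes the limma test called 20.5% higher and 43.2% lower in MEL at an adjusted p of 0.05 (Benjamini-Hochberg), and 5.72% higher and 4.27% lower when a 2-fold difference was also asked for. The family had 4 genes in the third of these classes and 1 in the last. Both MEL arrays lay above both ES-EP arrays for 5 members, against 27.1% of all genes, and below them for 4 members, against 54.7%. Nothing is read from these shares about the family, because its genes were named with the contrast known.

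Promoter windows are shown for the members that stood high in MEL, as far as RefSeq gave one, and for Slamf7, which lies between Ly9 and Cd48 and did not differ by the test. Each window is 300 bases of GRCm38.p6, 250 before the transcription start and 50 from it on, printed in the direction of the gene. They are chr1:171681742-171682041 for Cd48, chr1:171766882-171767181 for Slamf1 and chr1:171839447-171839746 for Cd84, all on the plus strand, and chr1:171648950-171649249 on the minus strand for Slamf7. Capitals mark the matches, on either strand, to the ETS motifs GGAAGT and GAGGAA (the core bound by PU.1 and its relatives, which overlap when a site holds both) and the GATA motifs AGATAA and TGATAA.
Cd48: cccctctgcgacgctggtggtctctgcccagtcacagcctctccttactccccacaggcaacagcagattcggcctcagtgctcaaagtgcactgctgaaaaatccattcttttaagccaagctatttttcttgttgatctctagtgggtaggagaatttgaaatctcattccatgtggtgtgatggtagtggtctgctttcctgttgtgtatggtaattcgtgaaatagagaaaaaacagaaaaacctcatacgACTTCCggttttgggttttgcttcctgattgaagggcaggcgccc
Slamf1: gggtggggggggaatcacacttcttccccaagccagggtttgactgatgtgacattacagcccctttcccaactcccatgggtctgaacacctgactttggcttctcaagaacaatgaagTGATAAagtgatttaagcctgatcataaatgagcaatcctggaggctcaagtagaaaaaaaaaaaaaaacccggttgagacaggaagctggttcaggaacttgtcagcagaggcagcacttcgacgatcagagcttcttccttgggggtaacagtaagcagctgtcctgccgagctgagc
Cd84: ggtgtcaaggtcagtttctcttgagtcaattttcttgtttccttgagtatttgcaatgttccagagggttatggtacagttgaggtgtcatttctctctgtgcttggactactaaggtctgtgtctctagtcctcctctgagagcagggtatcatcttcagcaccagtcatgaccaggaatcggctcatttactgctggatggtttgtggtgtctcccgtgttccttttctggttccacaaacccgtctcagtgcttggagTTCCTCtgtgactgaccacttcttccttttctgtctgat
Slamf7: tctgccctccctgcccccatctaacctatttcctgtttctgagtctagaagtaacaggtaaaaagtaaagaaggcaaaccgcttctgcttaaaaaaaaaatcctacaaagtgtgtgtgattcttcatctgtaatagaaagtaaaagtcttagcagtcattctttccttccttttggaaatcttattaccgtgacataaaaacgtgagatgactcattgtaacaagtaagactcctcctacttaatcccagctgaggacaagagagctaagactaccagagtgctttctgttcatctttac
Ly9 had no such window, and the 3 other genes that stood high shared none of the 4 motifs. Cd48 and Cd84 each held an ETS motif, but not the same one. Cd48 held GGAAGT on the reverse strand, 6 bases into the transcript, and 23.8% of 32851 mouse promoter windows hold that motif. Cd84 held GAGGAA on the reverse strand (28.3% of windows) and Slamf1 held TGATAA (9.05% of windows), while AGATAA (11.2%) occurred in none of these windows. The Slamf7 window held none of the 4 motifs. Of the windows of genes called lower in MEL, that of Slamf9 held GGAAGT at 2 places and GAGGAA at 1, that of Slamf8 held each of these at 1 place, and that of Slamf6 held none.

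Cd48, the lipid-anchored ligand, was high in MEL and near background in ES-EP. Its log2 signal was 9.34 in MEL A, 9.21 in MEL B, 3.87 in ES-EP A and 4.03 in ES-EP B. Both MEL values lay more than 5 log2 units above both ES-EP values. The difference was 5.32 ± 0.09 (log2, SE), or 40.1-fold (limma, adjusted p = 1.8e-11). In ES-EP the signal lay below the olfactory level, the 95th percentile of 1027 olfactory receptor genes, which blood cells mostly leave silent (5.56 in ES-EP and 5.19 in MEL). The size of the fold therefore rests on background. Set against the ES-EP olfactory level itself, the MEL signal was 13.1-fold higher.

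Slamf1 and Cd84, a pair of receptors that bind themselves, behaved alike in direction. MEL cultures gave 6.99 and 6.90 for Slamf1, against 4.06 and 4.13 in ES-EP. For Cd84 they gave 6.98 and 7.15, against 3.82 and 3.79. For both, the groups were far apart and the ES-EP cultures lay below the olfactory level, with 58.1% and 41.5% of olfactory genes beneath them. The differences were 2.85 ± 0.08 for Slamf1 (7.23-fold, adjusted p = 4.6e-10) and 3.26 ± 0.09 for Cd84 (9.56-fold, adjusted p = 2.6e-10). Against the ES-EP olfactory level, the MEL signals were 2.62-fold and 2.83-fold higher.

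Ly9 (CD229), another self-binding receptor and one with several tyrosine motifs, read 7.71 and 7.76 in MEL against 5.58 and 5.60 in ES-EP. The MEL cultures were again the high ones, without overlap. The difference of 2.15 ± 0.08 (4.43-fold, adjusted p = 3.5e-09) passed the test. Its ES-EP mean of 5.59 stood just above the olfactory level, higher than 95.4% of olfactory genes, so that it alone of the 4 was not below that level in ES-EP. These are signals of whole cultures, in which a change in the number of expressing cells and a change in RNA per cell cannot be told apart.

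**Figure D1:**
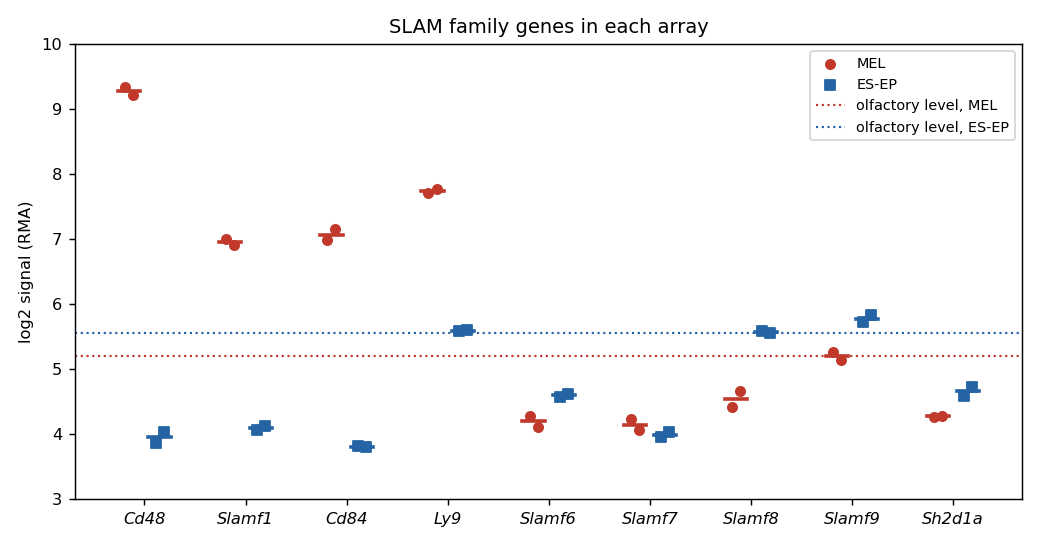
Log2 RMA signal (y) of the 9 SLAM family genes (x) in each array, MEL as red circles and ES-EP as blue squares, with bars at the means of 2 arrays and dotted lines at the olfactory level of each cell type. Cd48, Slamf1, Cd84 and Ly9 stand above the line in MEL only or nearly so, and Slamf6, Slamf7 and Sh2d1a lie below it in both.

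The remaining long-tailed receptors were near background in both cell types. Slamf6 (Ly108) read 4.28 and 4.11 in MEL against 4.58 and 4.61 in ES-EP, a difference of -0.40 ± 0.09 (adjusted p = 0.0024). Slamf7 (CRACC), an activating receptor of natural killer and plasma cells, read 4.23 and 4.05 in MEL against 3.95 and 4.02 in ES-EP. Its difference of 0.16 ± 0.09 did not pass the test (adjusted p = 0.149). For both genes all 4 values were under the olfactory level. Weak signals were lower in MEL in general, since olfactory receptor genes had a median difference of -0.20 and 23.0% of them a difference at or below that of Slamf6.

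Slamf8 and Slamf9 are the short-tailed members, without the tyrosine motifs that bind SAP. Slamf8 read 4.42 and 4.66 in MEL against 5.58 and 5.55 in ES-EP. The ES-EP cultures were the high ones, by 1.03 ± 0.10 on the log2 scale (2.04-fold, adjusted p = 6.3e-06), and 0.389% of olfactory genes differed as far downward. Yet the ES-EP mean of 5.57 was barely above the olfactory level and the MEL mean below it. Without MEL replicate A the difference was -0.90, and under quantile normalization, median centring and cyclic loess it was -0.81, -0.88 and -0.78, each short of 2-fold. Slamf9 read 5.26 and 5.13 in MEL against 5.72 and 5.83 in ES-EP (-0.58 ± 0.09, 1.49-fold, adjusted p = 0.00022). The MEL mean of 5.20 stood at the olfactory level and the ES-EP mean of 5.77 a little above it, and 10.7% of olfactory genes fell as far or further.

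Sh2d1a, the gene of the adaptor SAP on the X chromosome, stayed under the olfactory level in all 4 cultures. It read 4.26 and 4.28 in MEL against 4.59 and 4.72 in ES-EP, with 76.3% and 79.1% of olfactory genes beneath its means. The difference of -0.39 ± 0.08 (adjusted p = 0.0024) was one that 24.5% of olfactory genes reached or passed. Slamf1, Cd84 and Ly9, whose products are known to bind SAP, thus stood high in MEL cultures in which the signal of Sh2d1a was near background.

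**Figure D2:**
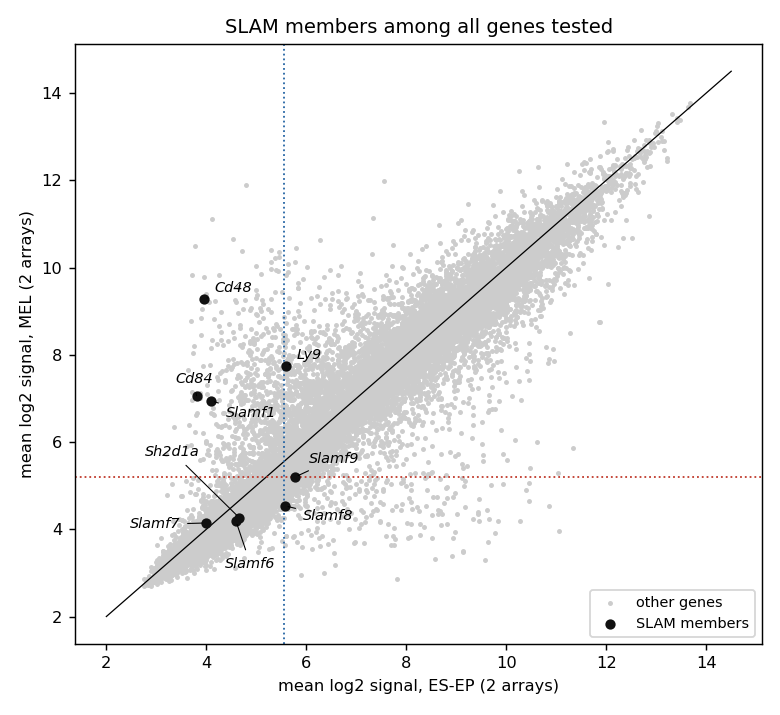
All genes tested are plotted by their mean log2 signal in ES-EP (x axis) and in MEL (y axis), each from 2 arrays, with the 9 SLAM family genes in black, the line of equal signal, and dotted lines at the olfactory level of each cell type. Cd48, Cd84 and Slamf1 lie to the left of the ES-EP line and above the MEL line.

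MEL arrays had medians of 5.68 and 5.67, ES-EP arrays of 5.81 and 5.84, and the median difference of all genes was -0.15. Rescaling by quantiles, medians or cyclic loess moved that median to -0.03, -0.01 and -0.00. The differences of the 4 high receptors rose with it, to between 2.23 (Ly9) and 5.47 (Cd48), and those of Slamf6 and Sh2d1a shrank to between -0.16 and -0.25. Both lost their call under quantile normalization (adjusted p = 0.0996 and 0.108) and cyclic loess (0.0745 and 0.089), under Holm's adjustment (both 1) and in a test for more than a 1.2-fold change (0.184 and 0.213), where their adjusted p ranged upward from 0.00027 and 0.00044 over all alternatives. Slamf9 lost its call under Holm's adjustment alone (0.789). Slamf7 passed the test under all 3 rescalings (0.31 to 0.35, adjusted p = 0.0069 to 0.0124, in a range of 0.0069 to 1 over its alternatives).

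**Figure D3:**
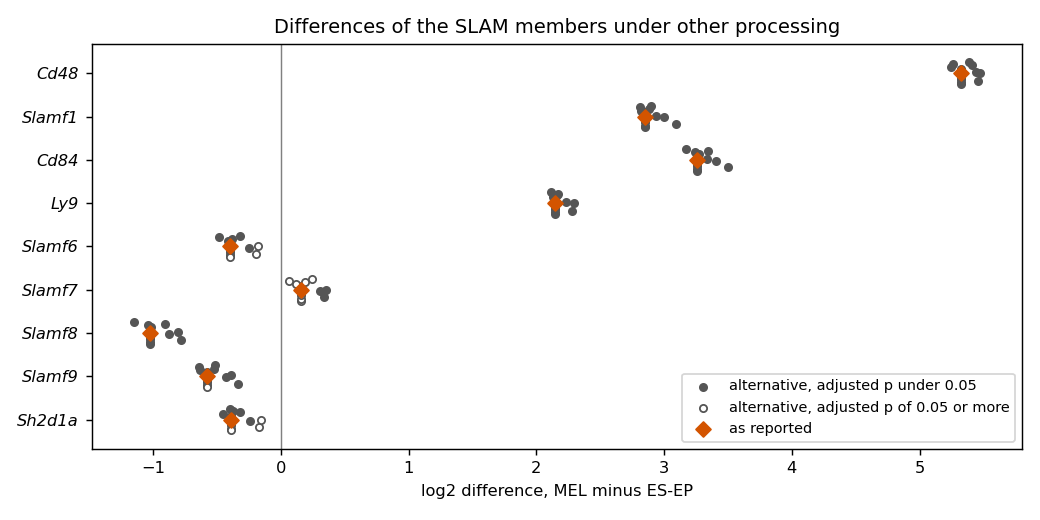
Log2 difference (MEL minus ES-EP, x) of each SLAM family gene as reported (orange diamonds) and under each alternative that tested it (grey, open where the adjusted p was 0.05 or more). The 4 high receptors stayed between 2.12 and 5.47, while Slamf6, Slamf7, Slamf9 and Sh2d1a had open points.

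The receptor genes share a place that their choice did not use. In the GRCm38.p6 gene order, 6 members, Ly9, Slamf7, Cd48, Slamf1, Cd84 and Slamf6, follow each other on chromosome 1 with 0 other measured genes between them, and Slamf9 and Slamf8 lie further along. The 4 high genes all belong to this run, but Slamf7 and Slamf6 of the same run were near background. Cd244a, which encodes the CD48 receptor 2B4 and precedes Ly9, read 4.90 and 4.91 in MEL against 5.09 and 4.98 in ES-EP, below the olfactory level throughout (-0.13 ± 0.08, adjusted p = 0.186), and its sign turned under the 3 rescalings.

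Most genes around the run showed no such gap. Of 26 measured neighbours, reaching 10 genes beyond the outermost members, 3 were called higher and 12 lower in MEL, against 20.5% and 43.2% of all genes. Their median difference of -0.16 was close to that of all genes. F11r, which encodes the junctional adhesion molecule JAM-A, was 4.45-fold higher in MEL (6.90 and 6.88 against 4.83 and 4.64, adjusted p = 8.5e-09), with the ES-EP cultures below the olfactory level. Vangl2, a planar cell polarity gene next to Slamf6, was 2.78-fold higher (7.31 and 7.39 against 5.72 and 6.03, adjusted p = 8.2e-07). The other 24 neighbours differed by between -0.96 and 0.24.

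**Figure D4:**
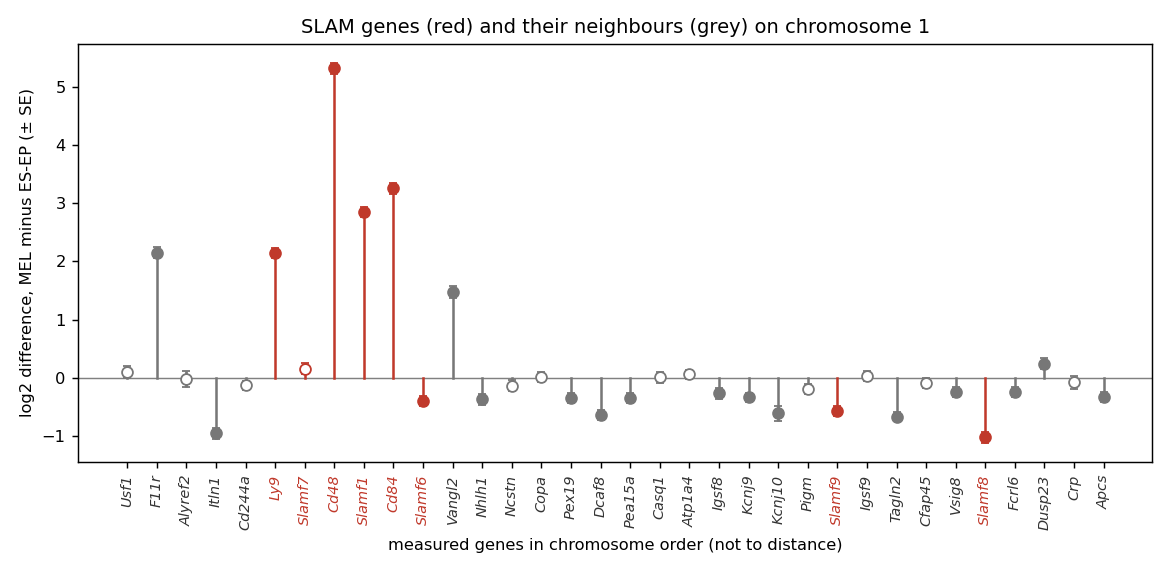
Log2 difference, MEL minus ES-EP, with its SE (y), in chromosome order from left to right (x, evenly spaced). The 8 SLAM receptor genes examined here are red, and 26 measured neighbours, Cd244a (2B4) among them, are grey. Filled points passed the limma test. Ly9, Cd48, Slamf1 and Cd84 stand out on both sides of Slamf7, and the neighbours F11r (2.15, as for Ly9) and Vangl2 (1.47) also stand high.

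Partners of the receptors were described next, from lists drawn up with earlier results known. The counts called in each list stand beside 20.5% higher and 43.2% lower over all genes, and nothing is read from them about the lists. Of 4 partner receptors and SAP relatives, Cd2, Cd244a, Sh2d1b1 (EAT-2) and Sh2d1b2, none exceeded the olfactory level in either cell type. By the test 3 were lower in MEL and the median difference was -0.23, against -0.15 for all genes. Both surface partners of CD48 and all 3 adaptors of the SAP family thus read as background in cells with high Cd48. Among 6 measured kinases and scaffolds recruited through SAP, 2 were higher (Vav1 and Bcl10), 1 was lower and 3 did not pass. Fyn, the kinase that SAP binds, read 5.03 and 5.10 in MEL against 5.10 and 5.03 in ES-EP, with overlapping groups (adjusted p = 0.995) below the olfactory level. Prkcq, protein kinase C theta, was the lower one, 7.89 and 7.80 in MEL against 10.44 and 10.51 in ES-EP (6.19-fold higher in ES-EP, adjusted p = 9.0e-10).

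Genes of signal inhibitors and of effectors downstream of EAT-2 were read in the same way, beside the same shares of 20.5% higher and 43.2% lower. Of 9 inhibitory phosphatases and their partners 5 were higher and 2 lower (median 0.38), all 9 above the olfactory level in both cell types. Dok2, an adaptor that restrains Ras, was 5.31-fold higher in MEL (8.40 and 8.17 against 5.89 and 5.87, adjusted p = 5.0e-09). The phosphatase gene Ptpn6 (SHP-1) was 1.73-fold higher, while Inpp5d (SHIP-1) was 1.35-fold higher in ES-EP. Of 7 effectors placed downstream of EAT-2, 5 were higher and 2 lower in MEL (median 0.82). Plcg2, phospholipase C gamma 2, read 8.37 and 8.22 in MEL against 5.64 and 5.42 in ES-EP, a 6.82-fold gap (adjusted p = 2.6e-09) whose lower mean lay below the olfactory level. Vav2, a guanine nucleotide exchange factor, was 2.84-fold higher (adjusted p = 7.7e-08). Of 7 autophagy and phagosome partners of SLAMF1, 1 was higher (Ncf4) and 2 lower (Becn1 and Cybb), with a median of -0.02.

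The surface markers read beside SLAM receptors on stem and progenitor cells came next. Of 11 measured, 7 were lower and 2 higher in MEL (median -0.38), against 43.2% and 20.5% of all genes, and Procr and Il7r among the lower ones lay below the olfactory level in both groups. Kit, the receptor of stem cell factor, read 5.33 and 5.24 in MEL against 10.96 and 11.09 in ES-EP, which was 53.5-fold higher in ES-EP (adjusted p = 1.0e-11). ES-EP also exceeded MEL 5.72-fold in Cd34, whose MEL values were under the olfactory level, and 4.09-fold in the Fc receptor gene Fcgr2b. Itga2b (CD41) was 4.92-fold higher in MEL (mean 9.06 against 6.76). Over all 44 distinct measured genes of these 6 lists 15 were higher and 17 lower, against 20.5% and 43.2% of all genes. By 2-fold as well, 4 were higher and 5 lower, against 5.72% and 4.27% of all genes.

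**Figure D5:**
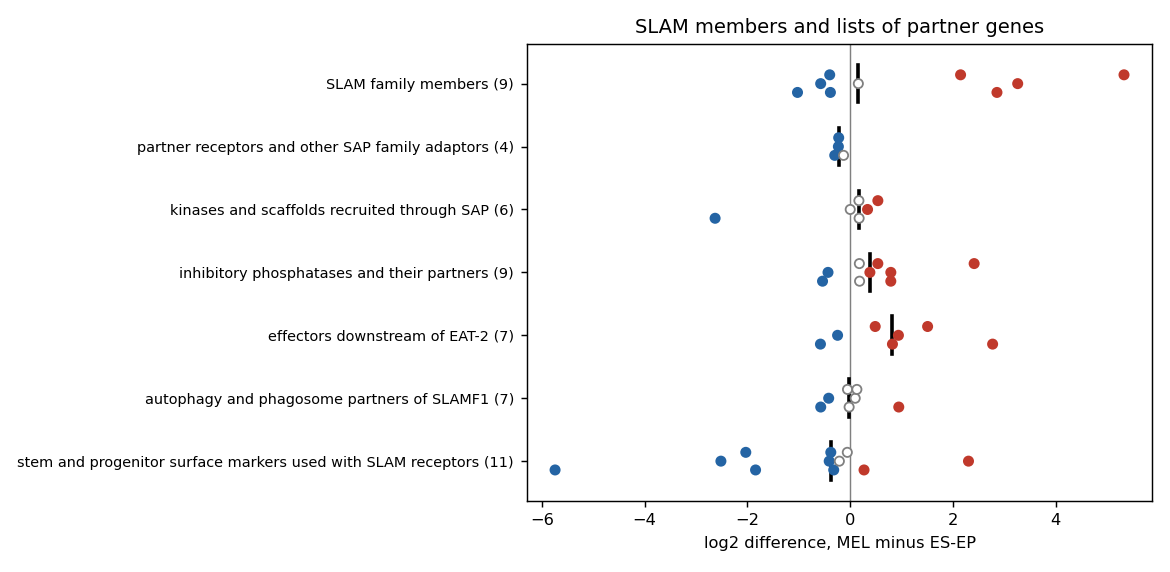
Log2 difference, MEL minus ES-EP (x), of each measured member of the SLAM family and of 6 partner lists (y, number measured in parentheses). Red points were called higher in MEL, blue lower, open points did not pass the limma test, and black bars are medians, from -0.38 for the stem and progenitor markers to 0.82 for the EAT-2 effectors.

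SLAM receptors are also known on lymphocytes, macrophages, dendritic cells, mast cells and platelets, so markers of these cells were read in the same arrays. The erythroid markers fitted the labels in that 11 of 11 measured exceeded the olfactory level in both cell types. Yet 9 were lower and 1 higher in MEL, against 43.2% and 20.5% of all genes. Slc4a1 (44.3-fold), Epb42 (9.32-fold) and Alas2 (8.69-fold) fell furthest, Slc4a1 to a mean of 5.87 in MEL. The higher one was Gata1 (2.21-fold), and whether its probe set also reads the Gata-1 fusion of MEL was not tested. The summed linear signal of the list was 20098 to 20874 in MEL and 31780 to 33900 in ES-EP. In MEL, 2 of 9 T cell, 1 of 7 B cell, 1 of 7 natural killer cell and 2 of 6 dendritic cell markers exceeded the olfactory level, and the ES-EP counts were the same. The summed linear signal of the T cell list ran from 269 to 286 in MEL and from 334 to 341 in ES-EP. That of the B cell list ran from 174 to 180 and from 212 to 218, that of the natural killer list from 155 to 166 and from 173 to 185, and that of the dendritic list from 187 to 195 and from 300 to 308. Under the olfactory level in MEL and ES-EP alike were 6 of the 9 T cell and 6 of the 7 B cell markers. So were 6 of the 7 natural killer cell and 4 of the 6 dendritic cell markers. Above it in both were Cd3e, Cd79b, Prf1 and the dendritic markers Zbtb46 and Batf3, while Cd247 exceeded it in MEL alone and Cd8a in ES-EP alone. The sums of the T cell, B cell and natural killer lists are thus largely background signal. The dendritic sum rested in large part on Zbtb46 and Batf3. Zbtb46 was 2.68-fold higher in ES-EP (mean 7.05 against 5.62 in MEL, limma adjusted p = 2.9e-07) and Batf3 1.27-fold (6.05 against 5.71).

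The myeloid and platelet lists were read likewise. For macrophages and monocytes 2 of 9 markers exceeded the olfactory level in each cell type, with sums of 418 to 425 in MEL and 352 to 357 in ES-EP. By the test 1 marker was higher, 3 were lower and 5 were not called, against 20.5% higher and 43.2% lower over all genes. The Fc receptor gene Fcgr1 was the higher one (mean 7.03 in MEL against 4.97 in ES-EP, the latter below the olfactory level). Csf1r, Cd14 and Lyz1 were the lower ones. Of these, Csf1r (1.87-fold) exceeded the level in ES-EP alone (mean 5.61 against 4.71 in MEL). Cd68 was above that level in both (7.17 and 7.09), and 6 of the 9, Itgam, Lyz2 and Adgre1 among them, were below it in both. The megakaryocyte and platelet list had 5 of 6 above in MEL and 4 of 6 in ES-EP, with sums of 1199 to 1284 and 450 to 452. Its Pf4 was 31.2-fold higher in MEL (8.89 and 8.81 against 3.95 and 3.82, below the olfactory level). Its Itgb3 was 3.49-fold higher in ES-EP (adjusted p = 3.0e-08), above the olfactory level in both, and Vwf was also called lower in MEL. The mast cell list was higher in ES-EP (sums of 2771 to 3031 against 277 to 285 in MEL, with 3 and 2 of 7 above), led by Ms4a2, while Cpa3 and Fcer1a were at background in both. The part of such cells or gene programs in the SLAM values was not tested.

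The genes most like a member were sought by the distance between 4 array values, each gene centred on its own mean, with clone names and olfactory genes left out. For Cd48 they were Rnf17, Aqp9, Trap1a, Kcnma1 and Pls3, at distances of 0.20 to 0.30 log2 units and with differences of 5.07 to 5.38. For Slamf8, the member with the largest fall, they were Mir16-1, Map3k6, Rit2, Bsnd and Bex1, at 0.05 to 0.07. With 2 groups of 2 arrays such likeness describes a similar gap and little else.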

How the data were processed

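The 4 arrays (Affymetrix Mouse Gene 1.0 ST) held RNA of 2 MEL and 2 ES-EP cultures. The deposited values are log2 signals that the authors obtained by RMA in GeneSpring GX (version not given in the sources used here), 1 column per array, per the labels and methods. RMA corrects background, normalizes between arrays and summarizes the probes of a probe set, and no detection calls were used here. The labels name build mm9. All 35557 probe sets had values, and the number of arrays limits the precision.

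A probe set was named where the array's gene table gave it 1 symbol (21789). Those with several symbols (1621) or unnamed here (12147) were left out. Where several probe sets named 1 of the 19938 genes, that of highest mean stood for it. MEL minus ES-EP was tested two-sided with limma 3.58.1 in R 4.3.3 (lmFit, eBayes, with 2 residual degrees of freedom and a prior of 8.20). P-values were adjusted over all genes (Benjamini-Hochberg, threshold 0.05). The 2-fold rule is the study's, which applied no test to it. The code was tested on simulated data.

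The members and lists were chosen with earlier results of these data known. Lists held 48 partner genes, 44 of them measured, and markers of 8 cell types. Named genes were all members, up to 4 called list genes with a 2-fold difference, neighbours with one, and the 5 most alike. Partner genes under 2-fold named beside them (such as Fyn, Vav1, Bcl10, Ptpn6, Inpp5d, Ncf4, Becn1 and Cybb), and the marker genes, were chosen after their values were seen. Promoter sequences are RefSeq's on GRCm38.p6 (7 of 9 members matched). Alternatives were 3 rescalings, 2 filters on low signal, other probe set rules, a replicate block, trend and robust eBayes, Holm's adjustment, testing for more than a 1.2-fold change, and each replicate left out. Figures used Python 3.11.15 and matplotlib 3.10.9.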

Additional observations from a re-analysis of the deposited data

How the results depend on the processing

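Cd48, Slamf1, Cd84 and Ly9 kept their direction and their call under every alternative that tested them, with differences of 5.24 to 5.47, 2.81 to 3.09, 3.17 to 3.50 and 2.12 to 2.29. A filter at the median of mean signal tested only Cd48 and Ly9, which left 2 members called higher, 2 past the 2-fold rule, 0 called lower and 0 lower by 2-fold. A filter at the 25th percentile left out Slamf6, Slamf7 and Sh2d1a, so that 2 members were called lower. With 4 called lower as reported, 2 were with quantile normalization, 2 with cyclic loess, 2 in the test against a 1.2-fold difference and 1 under Holm's adjustment. The 1 member lower by 2-fold, Slamf8, became 0 under quantile normalization, median centring and cyclic loess, and 0 to 1 when a replicate was left out (0 without MEL replicate A).

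Of the partner genes, 15 were called higher and 17 lower. The higher count was 16, 21 and 21 under quantile normalization, median centring and cyclic loess, 8 under Holm's adjustment and 11 against a 1.2-fold difference. The lower count was 10, 11 and 10 under quantile normalization, median centring and cyclic loess, 7 and 11 under the median and 25th percentile filters, 5 under Holm's adjustment and 8 against a 1.2-fold difference. The 3 neighbours called higher became 5 with cyclic loess. The 12 called lower became 6, 4 and 5 under the 3 rescalings, 4 under the median filter, 1 under Holm's adjustment, 4 against a 1.2-fold difference and 7 to 11 with a replicate left out (7 without MEL replicate A). Cd244a, not called, turned to 0.107, 0.0179 and 0.115 under the rescalings. The causes were not tested.

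The letters A and B are not stated to pair cultures (deviations of the A arrays correlated at -0.04 over genes). With the replicate block 4 members were called higher and 4 lower, 15 and 17 partner genes and 3 and 12 neighbours, as without it, but in that fit limma used 1 common spread for all genes.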
